A study of Mus musculus with 4 samples.

Results

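The regions described here were open chromatin peaks of gene deserts that a WT library and a library of mice lacking the Sox9 enhancers E160 and E308 had in common. They were chosen by peak calls, as the WT peaks on autosomes that overlapped a deletion peak by at least 1 bp, with a WT summit over 50 kb from any protein-coding transcription start site (TSS), in a gap of at least 1 Mb between neighbouring protein-coding gene bodies. By this rule 2899 of 88965 autosomal WT peaks were members. They made up 3.39% of the 85396 WT peaks shared with the deletion library, and they lay in 238 of 248 deserts. Because the calls of both genotypes chose them, their sharing and their density per Mb are given as a description.

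ATAC-Seq, in which the transposase Tn5 tags accessible DNA with sequencing adapters, was applied to primary chondrocytes from mouse rib cartilage. Primary rib chondrocytes with no genotype label, named Cho, gave 2 replicates. Cells of genotype WT and cells of genotype E160(delta/delta);E308(delta/delta), named the deletion, gave 1 library each. The deletion mice came from C57BL/6J embryos edited with CRISPR/Cas9 in successive steps to remove both elements, named for their distances upstream of Sox9 in kb, from the germline and not only from cartilage. A weak deletion peak was called inside the E308 interval that the study gives and none in E160, while the study reports neither as detectable in these mice. With 1 library per genotype, no difference between WT and the deletion was tested, and each value compares libraries rather than genotypes.

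A gene desert is a long stretch of DNA between protein-coding genes. Such stretches often flank genes for developmental regulators and can hold enhancers, which act on a promoter far away when the DNA folds to bring them together. Sox9, the transcription factor that directs cartilage formation, stands beside one of the best known deserts, and DNA changes far upstream of it cause skeletal disease in people.

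A set of 9 desert peaks is shown as the reference bases within 50 of the WT summit, plus strand of NCBIM37 (mm9), 5′ to 3′. The first 3 lie in the Sox9 desert and include the member with the highest ratio of deletion to WT there and the one with the highest Cho replicate 1 value. The next 3 hold an AP-1 motif in dense deserts or with a high ratio. The member with the highest WT value follows, and the last 2 are tandem repeats. Capitals mark the AP-1 motif TGANTCA, where N is any base, or in the last 2 the tandem repeat.
Sox9 desert, 608 kb upstream of Sox9, chr11:112035117-112035217: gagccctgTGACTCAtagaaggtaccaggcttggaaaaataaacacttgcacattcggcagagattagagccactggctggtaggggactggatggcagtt
Sox9 desert, 1019 kb upstream of Sox9, chr11:111624566-111624666: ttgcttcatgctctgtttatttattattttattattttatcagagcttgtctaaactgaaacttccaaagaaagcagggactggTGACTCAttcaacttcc
Sox9 desert, 1094 kb upstream of Sox9, chr11:111549906-111550006: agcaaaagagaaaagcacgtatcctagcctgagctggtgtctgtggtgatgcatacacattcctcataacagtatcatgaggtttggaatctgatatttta
Adamts5-N6amt1, chr16:86138595-86138695: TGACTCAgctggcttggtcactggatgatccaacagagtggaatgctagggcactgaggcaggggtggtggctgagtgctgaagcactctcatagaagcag
A1bg-Myc, chr15:60958785-60958885: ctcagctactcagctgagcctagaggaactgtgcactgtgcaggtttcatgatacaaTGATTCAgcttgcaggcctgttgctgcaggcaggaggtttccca
Rorb-Anxa1, chr19:20314045-20314145: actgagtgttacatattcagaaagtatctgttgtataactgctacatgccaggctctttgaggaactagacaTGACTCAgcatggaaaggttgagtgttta
Cntnap5b-Cdh20, chr1:104524805-104524905: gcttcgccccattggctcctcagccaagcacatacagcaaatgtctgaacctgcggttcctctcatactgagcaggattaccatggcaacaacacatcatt
Pcdh20-Gm10110, chr14:90068665-90068765: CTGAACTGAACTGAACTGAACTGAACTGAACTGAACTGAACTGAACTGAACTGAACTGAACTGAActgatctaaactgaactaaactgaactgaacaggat
Tlr4-Dbc1, chr4:66783337-66783437: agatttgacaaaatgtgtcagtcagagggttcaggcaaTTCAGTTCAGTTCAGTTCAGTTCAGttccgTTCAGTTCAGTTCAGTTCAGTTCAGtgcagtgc

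WT had 90971 peaks, the deletion 169591, Cho replicate 1 76242 and Cho replicate 2 148330. Fold enrichment, the summit pileup over the local background with 1 added to each, was compared between lists with the caution that it moves with depth. The most frequent background pileup was 0.361 for WT and 0.626 for the deletion. Of 8 chondrocyte marker genes, 7 had a promoter peak in each genotype and 4 in Cho replicate 1, where Acan, Col11a2, Matn1 and Comp had none. Of the 6 fibroblast or osteoblast markers, 4 had one in WT, 6 in the deletion library and 3 in Cho replicate 1. Of 4 muscle markers, 1 had a promoter peak in WT, 2 in the deletion library and 0 in Cho replicate 1. Of 4 endothelial markers, 2 had one in each of these lists, and Cdh5 and Tie1 had none. Of 4 blood markers, 3 of them in the annotation, Cd68 alone had one, in the deletion library, and neither of 2 keratinocyte markers had one. The part of other cell types in the values below was not tested.

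Desert peaks were sparse, distant from genes and uneven along deserts. The 248 deserts covered 439.9 Mb, or 17.8% of autosomal bases, and their median length was 1.52 Mb. Over sequenced bases beyond 50 kb from a TSS, members numbered 7.09 per Mb in deserts. Shared intergenic peaks at the same distance outside deserts numbered 24.0 per Mb. The median member lay 356 kb from the nearest TSS and the most distant 2196 kb. There were 908 members over 500 kb away and 159 over 1 Mb away. Neighbours within a desert stood a median of 35.7 kb apart, yet 1151 members (39.7%) had another within 10 kb. No noncoding gene of the annotation covered 96.1% of the members, and Pvt1, a long noncoding RNA gene beside Myc, covered 29, the most of any.

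In median WT fold enrichment, members were level with shared intergenic peaks outside deserts. Their median WT fold enrichment was 6.62, the same as that of the 12315 shared intergenic peaks outside deserts, and promoters had 9.29. The median width was 155 bp, against 166 bp outside deserts and 260 bp at promoters. The median WT summit rested on a pileup of 8, against 9 outside deserts and 21 at promoters, so the value of a single member is imprecise. At pileups this low, fold enrichment moves in coarse steps, so equal medians do not show equal strength.

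Members were spread unevenly over the deserts. Ranked by members per Mb, Ppap2b-Usp24 came first, with 54 members and 49.8 per Mb (95% Poisson interval 37.4 to 65.0). Ppap2b is a lipid phosphate phosphatase and Usp24 a deubiquitinase. Klf4-Actl7b, beside the zinc finger transcription factor Klf4, had 56 members and 46.4 per Mb. Mki67-Mgmt, between the proliferation antigen gene Mki67 and the DNA repair gene Mgmt, had 46 and 39.0 per Mb. Gm8730-Cdh5, beside the endothelial cadherin gene Cdh5, had 47 and 38.0 per Mb, although the Cdh5 promoter held no peak in these lists. With predicted genes such as Gm8730 left out, that gap ran from Cdh11 to Cdh5. A predicted gene flanked 90 of the 248 deserts. Myc-Gsdmc, beside the transcription factor Myc, held the most members of any desert, 66, at 37.0 per Mb. On the other side of Myc, A1bg-Myc ranked 8 with 33 members and 31.0 per Mb.

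The remaining deserts among the 10 densest were Tnc-Pappa, Jag1-Btbd3, Adamts5-N6amt1 and Zfp608-Gramd3. Tnc encodes the matrix protein tenascin C and Pappa a protease of insulin-like growth factor binding proteins, and their desert held 38 members (34.4 per Mb). Jag1 is a Notch ligand, and its desert held 37 (32.5 per Mb). Adamts5 is an aggrecanase, an enzyme that cuts the main proteoglycan of cartilage, and 45 members (31.0 per Mb) lay between it and N6amt1. Zfp608-Gramd3 held 42 (29.8 per Mb). The Poisson intervals of neighbours in this order overlapped, so single ranks are not separated by counting error. Together these 10 deserts held 464 members, 16.0% of all, in 2.88% of the desert length. The median desert had 4.42 members per Mb (quartiles 2.34 and 9.44), and 45 deserts held 50% of all members. By number alone, Myc-Gsdmc and Klf4-Actl7b were followed by Ppap2b-Usp24 and 5930403N24Rik-Lama4, with 54 each, and Gm8730-Cdh5.

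**Figure D1:**
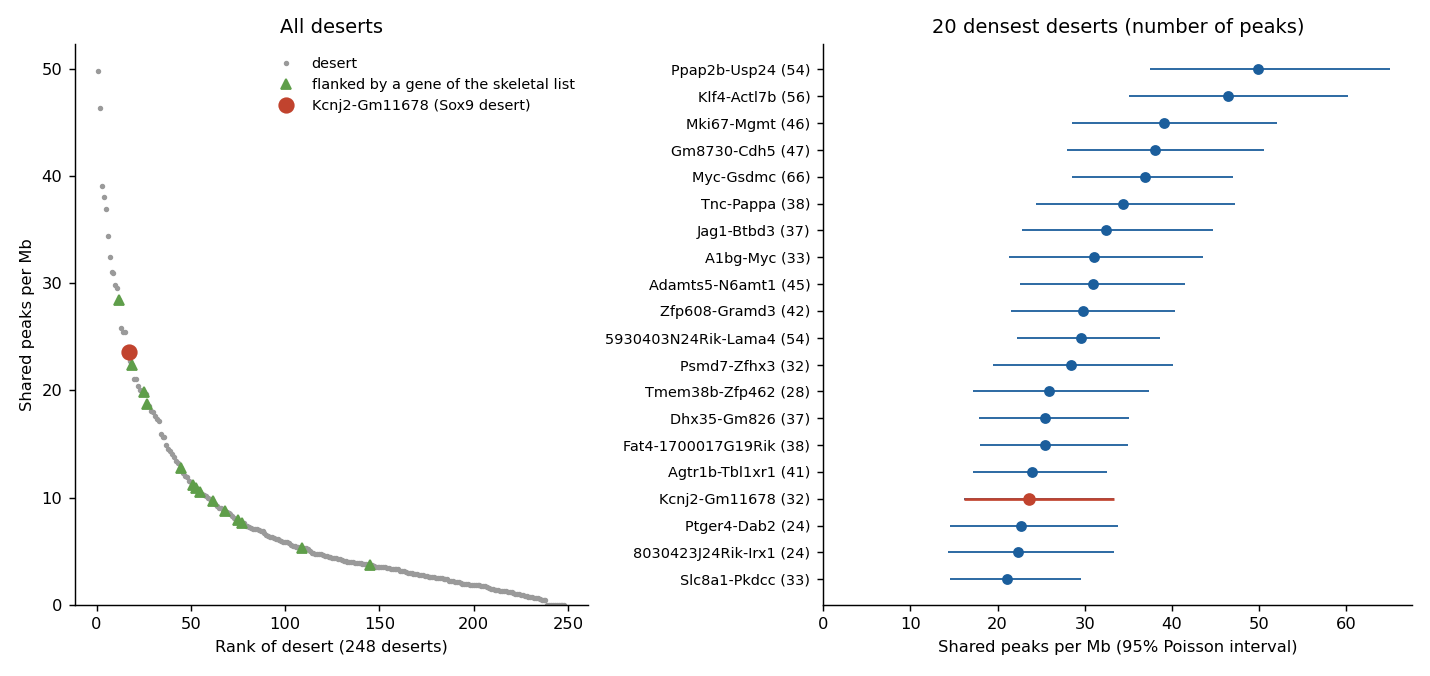
Left, shared peaks per Mb of each of 248 deserts against rank, with deserts flanked by a gene of the skeletal list as triangles and the Sox9 desert as a red circle. Right, the 20 densest deserts with 95% Poisson intervals (counting error only) and the number of peaks; the Sox9 desert ranks 17 at 23.6 per Mb, and its interval overlaps those of its neighbours.

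At the other end, 10 deserts had no member. Gm5591-Gm16387, the longest gap at 7.20 Mb, and Gpm6a-Gm1153 were 97.2% and 92.8% unsequenced in the assembly, so their lack of members says nothing about chromatin. Lingo2-1700009N14Rik (2.50 Mb), Cdh9-Cdh10 (1.96 Mb) and Spanxn4-Fscb (1.78 Mb) were sequenced throughout and had none, and a count of 0, taken to allow up to 3, gives limits of 1.201, 1.53 and 1.68 members per Mb. Lingo2 and the cadherins Cdh9 and Cdh10 are known from neurons. The next longest gaps were also thinly filled. Celf4-Pik3c3 (4.52 Mb) had 15 members, Olfm4-Pcdh17 (4.42 Mb) 13, Cntnap5b-Cdh20 (4.28 Mb) 6 and 4930555F03Rik-Aga (3.99 Mb) 10. Across the 248 deserts, density went with base composition and length. Spearman's rho was 0.51 with the GC percent of the desert and -0.31 with its length, over deserts read from the same libraries. The 248 include 4 deserts that were over 90% unsequenced.

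Libraries that did not choose the members filled the deserts in a similar order. The study names mm9 for every list, but of 17472 gene starts Cho replicate 2 had a peak within 1 kb of 65.4% by GRCm38 positions and 17.7% by NCBIM37 positions, so it was read as GRCm38. For 153 deserts both flanking genes could be placed in that build at a length within 20%. Counting all peaks between the same genes, Spearman's rho with Cho replicate 2 density was 0.92 for WT, 0.95 for the deletion and 0.87 for Cho replicate 1. These points share base composition and length, and no p-value is given. Cho replicate 2 had 84.9 peaks per Mb in Ppap2b-Usp24, 81.2 in Klf4-Actl7b and 74.7 in Mki67-Mgmt, against a median of 9.74 over the 153.

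Density beside listed genes is given as a description, since the lists were drawn up with results of these data known. Of 104 genes on a list of such regulators, 13 flanked a total of 14 deserts, which held 274 members at a median of 10.7 per Mb. Density was above the median of all deserts in 13 of the 14, and 9 were among the 62 densest. Psmd7-Zfhx3 ranked highest of them, with 32 members (28.4 per Mb), then 8030423J24Rik-Irx1 with 24 (22.4 per Mb), and Zfhx3 and Irx1 are homeobox transcription factors. Nr2f1-Arrdc3, beside the nuclear receptor gene Nr2f1, was lowest, with 10 members (3.73 per Mb). The 63 deserts flanked by neural adhesion and synapse gene families had a median of 3.31 per Mb. Of them, 22 lay above the median of all deserts, 5 were among the 62 densest, and 3 had no member. Csmd3-Trps1 was counted under both lists. That family list takes in Gm8730-Cdh5 and the Sox9 desert through the symbols Cdh5 and Kcnj2. No desert was flanked by a chemosensory receptor gene, and the 172 deserts of no list had a median of 5.13 members per Mb. Density itself came from the calls that chose the members, and the counts describe these deserts alone.

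The Sox9 desert ranked 17 of 248. By the rule it ran for 1.35 Mb on chromosome 11 from Kcnj2, an inward rectifier potassium channel gene ending at 110938135, to Gm11678, a predicted protein-coding gene of 447 bp that starts at 112292504. It held 32 members, or 23.6 per Mb (16.2 to 33.4). Densities anywhere in that interval would rank between 7 and 33. Its neighbours in rank were Agtr1b-Tbl1xr1, with 41 members (24.0 per Mb), and Ptger4-Dab2, with 24 (22.7 per Mb), between the prostaglandin E receptor gene Ptger4 and the endocytic adaptor gene Dab2. Neither differed from it beyond counting error.

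Members of the Sox9 desert were of modest height. Their WT fold enrichment ran from 3.68 to 14.2, with a median of 6.02. The strongest in WT, 1007 kb upstream of the Sox9 TSS, had 14.2 in WT and 13.2 in the deletion library and no Cho replicate 1 interval. The next, 902 kb upstream, had 13.8 in WT, 17.98 in the deletion and 6.33 in Cho replicate 1. The peak 1094 kb upstream had 12.2 in WT, 15.4 in the deletion library and 34.6 in Cho replicate 1, the highest Cho value among the desert's members. The peak 483 kb upstream had 11.5, 12.6 and 5.91. These 4 strongest members were therefore unequal in Cho replicate 1, from no interval to its highest value.

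In the deletion library 27 of the 32 had a higher fold enrichment than in WT and 5 a lower one. Fold enrichment was also higher there at 2365 of all 2899 members and at 64220 of 85396 shared peaks. The median log2 ratio of the 32 was 0.35, close to the 0.40 of all members. Scaled to library background, the summit pileup was higher in the deletion library at 16 and lower at 16, with a median ratio of 0.99, so the split by fold enrichment moved with the scaling. A fold enrichment ratio of at least 2 was reached by 4 of the 32, against 10.7% of all members and 7.77% of all shared peaks. A ratio of 1 in 2 or less was found at 0 of the 32, against 0.241% of all members. By scaled pileup the counts in the Sox9 desert were 2 and 1, against 3.79% and 3.83% of all members. The 1 lower peak was 573 kb upstream, with a ratio of 0.494 (exact interval 0.137 to 1.72). The largest ratio by both measures was 608 kb upstream, where fold enrichment was 4.41 in WT, 13.8 in the deletion and 9.71 in Cho replicate 1. Its WT summit rested on a pileup of 5 and its deletion summit on 22, and the scaled ratio was 2.54 (0.938 to 8.58). The others were 943 kb upstream (4.57 and 11.6 in WT and the deletion, scaled ratio 2.21), 1246 kb upstream (4.41 and 11.1, 1.96) and 1034 kb upstream (7.35 and 15.4, 1.54), none of which met a Cho replicate 1 interval. Between 992 and 1094 kb upstream lay 6 members. Among them were the peak 1019 kb upstream, with 8.09 in WT, 14.0 in the deletion and 12.7 in Cho replicate 1, and the peak 1001 kb upstream, with 3.68, 6.76 and 8.02.

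The remaining members were between 4.19 and 9.56 in WT. Of these, the peaks 1177 kb, 820.5 kb and 710.4 kb upstream met a Cho replicate 1 interval, at 4.65, 4.65 and 8.02. The members with a lower value in the deletion library, other than that at 1007 kb, were 1336 kb (5.15 and 4.92), 1214 kb (9.56 and 8.61), 824 kb (4.77 and 4.72) and 573 kb upstream (5.88 and 4.30).

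**Figure D2:**
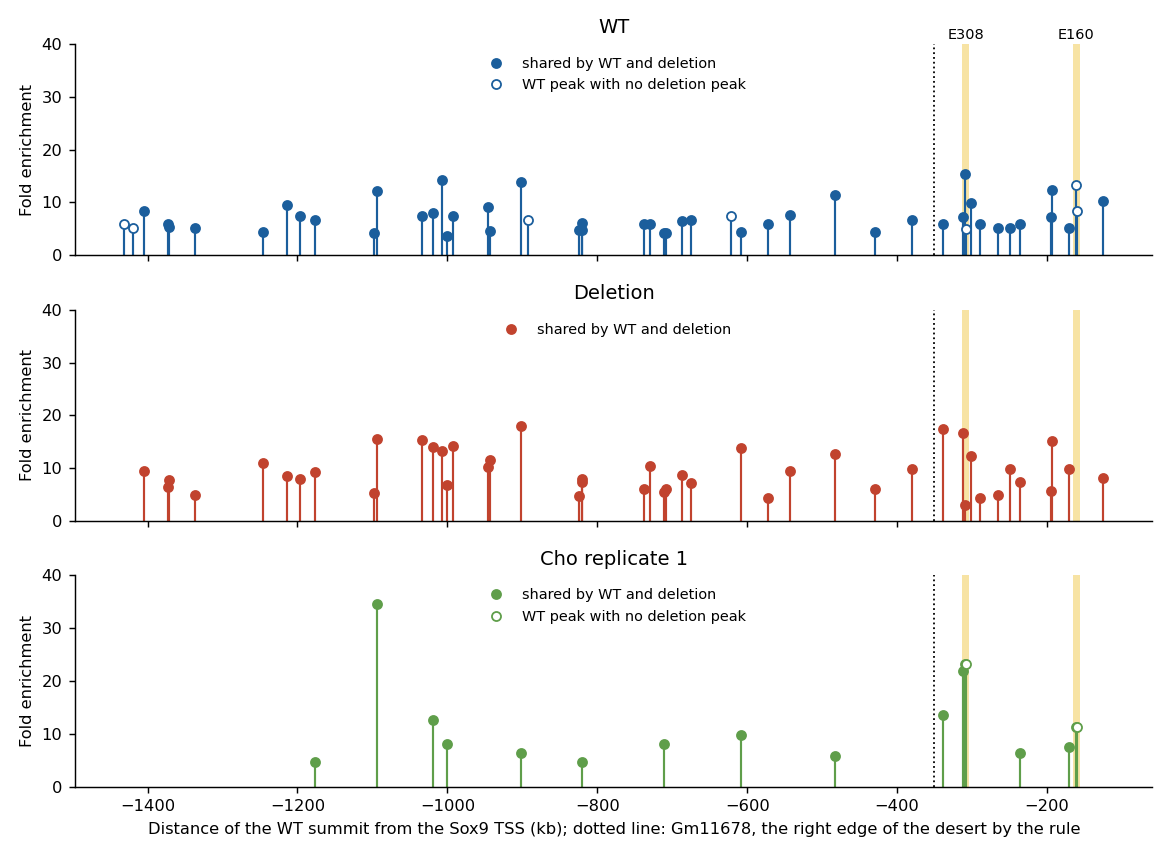
Fold enrichment of WT peaks over 50 kb from the TSS of a named gene between Kcnj2 and Sox9, against the distance of the WT summit from the Sox9 TSS in kb, in WT, the deletion library and Cho replicate 1. Filled points are shared by WT and the deletion, open points are WT peaks without a deletion peak, bands mark E308 and E160, and the dotted line marks Gm11678. The highest Cho replicate 1 value, 34.6, is 1094 kb upstream, and WT values stay at or below 15.4.

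Cho replicate 1 covered few of these members. An interval of it overlapped 9 of the 32 (28.1%, exact binomial interval 13.7% to 46.7%), against 51.1% (49.2% to 52.9%) of all desert peaks. Among the 106 deserts with 10 or more members, the share ran from 23.1% in Nox3-Arid1b to 92.9% in Arrdc4-Nr2f2, with a median of 53.4%, and 4 deserts were below the Sox9 desert. Of its 8 members with an AP-1 motif, 6 met Cho replicate 1, and of the 24 without, 3 did.

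E308 and E160 were outside the members, since Gm11678 leaves under 1 Mb between itself and Sox9. RefSeq lists no gene of that symbol. With predicted genes left out, the gap was Kcnj2-Sox9, of 1.71 Mb, and 45 of its 52 WT peaks over 50 kb from a TSS were shared. It then ranked 19 of 288, at 26.4 per Mb. A Cho replicate 1 interval met 14 of the 45. In this gap Cho replicate 2 had 131 peaks, or 76.8 per Mb, and ranked 3 among 248 gaps placed in both builds, where WT ranked 16, the deletion 17 and Cho replicate 1 38 by all their peaks.

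By fold enrichment, the single shared peak of the gap that fell to 1 in 2 or less was in E308. There fold enrichment was 15.4 in WT, 3.07 in the deletion library and 23.2 in Cho replicate 1, and the deletion over WT ratio of pileups scaled to background was 0.0887 (exact interval 0.0225 to 0.256). The deletion peak, at chr11:112334735-112334858, lay wholly inside the element and rested on a pileup of 4, so the deletion library was not without signal in DNA that its label gives as deleted. By scaled pileup 3 shared peaks of the gap fell to 1 in 2 or less, that in E308 and those 573 and 289 kb upstream, both at 0.494 with an interval that includes 1. The second WT peak in E308, at 5.06, and both WT peaks in E160, at 13.4 and 8.32, had no deletion peak. Close by, the peak 338 kb upstream had 5.88 in WT, 17.4 in the deletion and 13.5 in Cho replicate 1, with a scaled ratio of 2.39 (1.02 to 6.46). The peak 312 kb upstream had 7.30, 16.6 and 22.0, and there the scaled ratio was 1.25 (0.609 to 2.72). Nearer to Sox9, the peak 124.7 kb upstream had 10.3 in WT and 8.14 in the deletion, with no Cho replicate 1 interval.

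Across all deserts, Cho replicate 1 met members about as often as other distal peaks, and more often in the upper 2 of 4 groups of strength than in the lower 2. It met 1480 of 2899 members, 51.1%, against 59.6% of all shared autosomal peaks, 50.5% (49.6% to 51.3%) of shared intergenic peaks outside deserts and 86.7% of promoters. When all shared peaks were divided into 4 equal groups by WT fold enrichment, at 5.25, 7.12 and 10.3, the members' share was 42.5%, 43.1%, 55.2% and 68.4%. Outside deserts it was 35.1%, 43.9%, 54.7% and 73.7%. The members' share was above that outside deserts in the lowest group (39.1% to 45.9% against 33.4% to 36.7%), and the intervals overlapped in the other 3. The few members at 20 or more in WT, which lie within the highest group, went the other way and are described separately.

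Members with an AP-1 motif met Cho replicate 1 more often than those without. AP-1 is a dimer of Jun and Fos proteins that binds TGANTCA, a motif that reads alike on both strands. It occurred within 100 bp of the summit in 840 members (29.0%, 27.3% to 30.7%), in 6.54% of windows 2 kb beside the same summits, in 25.9% of shared intergenic peaks outside deserts, in 5.31% of promoters and in 19.9% of all shared peaks. Among members with the motif, 72.0% (68.9% to 75.04%) met Cho replicate 1, and among those without it 42.5% (40.3% to 44.7%). Both sets had a median WT fold enrichment of 6.62 and a median WT pileup of 8. In the 4 groups of WT fold enrichment the shares were 60.7%, 61.98%, 77.6% and 91.4% with the motif and 34.5%, 36.7%, 46.2% and 57.6% without, and the intervals of the pair did not overlap in any group. Of 114 deserts with at least 3 members of each kind, the share was higher with the motif in 107, lower in 6 and equal in 1. The same held outside deserts, at 72.8% and 42.6%, so the pattern was not particular to deserts. The median deletion fold enrichment was 11.03 with the motif and 9.22 without.

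**Figure D3:**
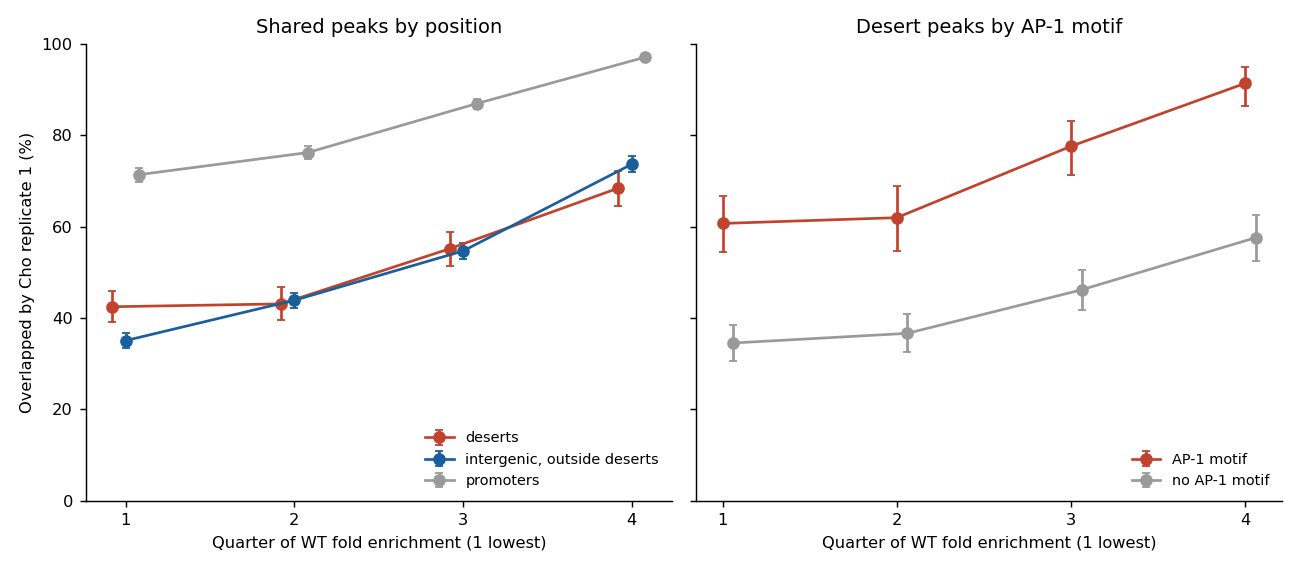
Percent of shared peaks overlapped by a Cho replicate 1 interval, in 4 equal groups of all shared autosomal peaks by WT fold enrichment (1 lowest), with 95% exact binomial intervals (counting error only). Left, desert peaks, intergenic peaks over 50 kb from a TSS outside deserts, and promoters. Right, desert peaks with and without an AP-1 motif within 100 bp of the summit, where the highest group reads 91.4% and 57.6%.

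Other short motifs, searched on both strands, were also more frequent at member summits than 2 kb beside them. The motif TGTGGT, bound by RUNX factors of bone and cartilage, was in 25.6% of members and 13.3% of the windows beside them. The TEAD motif GGAATG was in 24.5% and 12.2%, the NFI motif TTGGCA in 24.1% and 11.3%, and the E-box CAGCTG in 15.4% and 6.68%. The CTCF core AGNNGGCAG was in 8.14% and 3.80%. The SOX motif AACAAT went the other way, at 8.56% and 15.5%, as did the homeodomain motif TAATTA, at 3.49% and 8.49%, and the PITX motif TAATCC, at 6.11% and 7.57%, with overlapping intervals for the last. These 3 motifs are made mostly of A and T. Median GC within 100 bp of the summit was 44.8%, against 40.3% beside it, 48.3% outside deserts and 64.2% at promoters. In all shared peaks RUNX was in 19.9%, TEAD in 17.7%, the NFI motif in 16.3%, E-boxes in 16.1%, CTCF in 10.98%, SOX in 5.19%, PITX in 4.55% and homeodomain in 2.17%.

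Against Cho replicate 1, the NFI motif went opposite to AP-1. Members with it met Cho replicate 1 in 43.2% (39.5% to 47.0%) and those without it in 53.5% (51.4% to 55.6%). With RUNX the share was 56.6%, against 49.1% without, and with TEAD 56.3%, against 49.3%. For SOX it was 46.8% (40.4% to 53.2%), against 51.5%, and for CTCF 118 of 236 members, against 51.1%, with overlapping intervals for both. A match names letters in the window and does not show that a factor was bound.

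**Figure D4:**
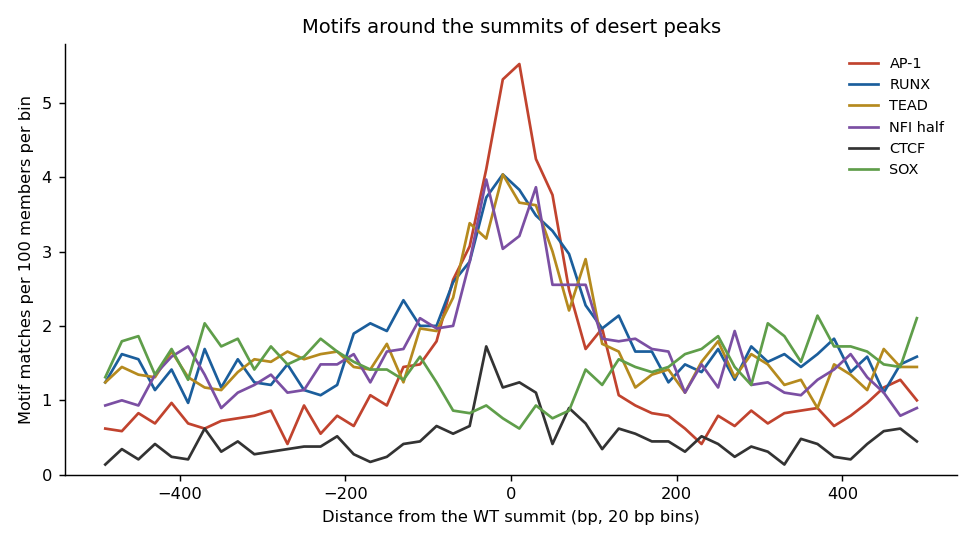
Matches of 6 motifs per 100 desert peaks in bins of 20 bp, against the distance from the WT summit in bp. AP-1 is highest, at 5.52 in the bin just right of the summit, and the SOX motif dips at the summit, to 0.621 in the same bin.

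The strongest members differed from the rest in Cho replicate 1. The 10 with the highest WT fold enrichment ran from 42.9, in Cntnap5b-Cdh20, to 27.6, in Pxmp3-1700008P02Rik, and none met a Cho replicate 1 interval. Their pileups were nearly equal in WT and the deletion library, at 70 and 84 in the first of them, so scaled to library background the ratio of deletion to WT was 0.54 to 0.69. Several were repeated elsewhere in the assembly, by exact copies of the 51 bases at the summit. Both of those in Gm12887-9530002B09Rik (30.8 and 27.9 in WT) share their 51 bases with each other. The site in Nxph1-Ndufa4 (39.5) has 2 copies. Those in Reg3g-Gm17621 (32.5), Ddx18-Dpp10 (27.7) and the first and last were found once each.

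Set by strength, 5 of the 31 members at 20 or more in WT met Cho replicate 1 (16.1%, 5.45% to 33.7%), against 77.8% (67.8% to 85.9%) of the 90 between 15 and 20 and 70.2% of the 490 between 10 and 15. Outside deserts, 41 of 62 at 20 or more did (66.1%, 53.0% to 77.7%). Of the 31, 11 held a tandem repeat of at least 40 bp, and 1 an AP-1 motif. The strongest member of each of the 10 densest deserts, by contrast, had 14.3 to 20.6 in WT and met Cho replicate 1 in 9 of 10 cases. Examples are Jag1-Btbd3 (18.5 in WT, 22.5 in the deletion and 33.8 in Cho replicate 1), Adamts5-N6amt1 (17.9, 23.2 and 25.3) and Klf4-Actl7b (20.6, 21.3 and 10.1). The exception was Ppap2b-Usp24, at 16.0 in WT and 18.2 in the deletion library.

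Members in tandem repeats stood apart. A tandem repeat of at least 40 bp was at 48 members in 44 deserts, and Cho replicate 1 met 3 of them (6.25%, 1.31% to 17.2%). Repeats of CTGAA, at least 4 units on either strand within 100 bp, were at 7 members of 6 deserts. This unit was examined after values were seen, and no other single unit was counted. Sites of this unit are among the lowest ratios of deletion to WT named below. The ratios and counts of the 7 are therefore a description, and nothing is read from them. All 7 had a lower fold enrichment in the deletion library, against 534 of all 2899 members. At least 2-fold lower were 4 of the 7, against 0.241% of all members and 0.0679% of all shared peaks. The log2 ratios of the 7 were -1.33 to -0.55, with a median of -1.08. Cho replicate 1 met 0 of 7, which allows a share of up to 42.9% at a limit of 3 counts. Outside deserts 5 of 6 such peaks were at least 2-fold lower in the deletion library. Whether reads of these repeats were placed alike in each list was not tested.

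**Figure D5:**
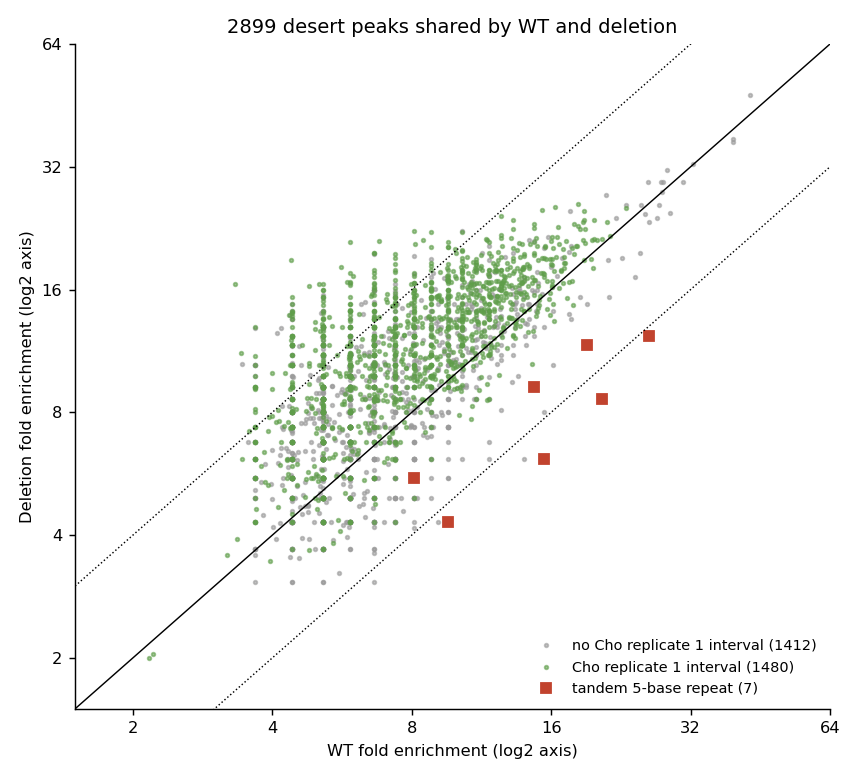
Fold enrichment in the deletion library against WT for each of 2899 desert peaks, both axes on a log2 scale, with lines of equality (solid) and of 2-fold difference (dotted). Peaks with a Cho replicate 1 interval are green, and the 7 peaks in the 5-base repeat CTGAA are red squares, which all lie below equality. The repeat was examined after values were seen.

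Between the WT and deletion libraries, the shift in members depended on the measure. Fold enrichment was higher in the deletion library at 2365 members (81.6%), 10016 of 12315 intergenic peaks outside deserts and 64220 of 85396 shared peaks. The median log2 ratio of the members was 0.40 (0.39 to 0.42), against 0.37 outside deserts, 0.09 at promoters and 0.28 over all shared peaks. Scaled to library background, the median of the members was 0.04 and that of all shared peaks -0.01. By this measure the deletion library was higher at 52.1% of members, 53.2% of intergenic peaks outside deserts and 49.2% of all shared peaks. A fold enrichment ratio of at least 2 was found at 311 members (10.7%), against 7.77% of all shared peaks, and one of 1 in 2 or less at 7 (0.241%), against 0.0679%. By scaled pileup these were 110 members (3.79%), against 3.60%, and 111 (3.83%), against 1.40%. As both libraries chose the members, nothing is read from these counts.

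Among members at or above the median WT value, the 5 highest ratios were in Gm10029-Gm9742, with 6.81 in WT, 21.0 in the deletion and 27.4 in Cho replicate 1, in Tmem182-Gm9915 (6.62, 19.7 and 10.6), Nmbr-Cited2 (6.62, 19.7 and 12.7), Grin3a-Cylc2 (6.62 and 19.6, no Cho interval) and Rorb-Anxa1 (8.09, 22.3 and 14.4). Their scaled ratios were 2.23 to 2.71. Cited2 is a transcriptional coregulator and Rorb a nuclear receptor. The 5 lowest were in Pcdh20-Gm10110 (15.4 in WT and 6.15 in the deletion), Tlr4-Dbc1 (20.6 and 8.61), Rps19-ps13-Prelid2 (14.0 and 6.15), Rpl17-ps3-Rps29 (9.56 and 4.30) and Ipmk-Zwint (6.62 and 3.07). None of the 5 met Cho replicate 1. The sites in Pcdh20-Gm10110, Tlr4-Dbc1 and Rpl17-ps3-Rps29 are CTGAA repeats, and that in Rps19-ps13-Prelid2 has 23 exact copies of its 51 bases.

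Near the limits of the rule, the members closest to a TSS were 50085 bp (5.88 in WT and 6.67 in the deletion) and 50417 bp away (8.09 and 4.92). Just outside, shared peaks stood at 49959 bp (10.6 and 10.2) and 49694 bp (13.2 and 16.0). The shortest desert was Zfp516-Tshz1, of 1006312 bp, and the longest gap left out was Rbfox1-Cldn26, of 996796 bp.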

How the data were processed

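ATAC-Seq peaks of 4 libraries of primary rib chondrocytes were used: Cho (2 replicates), WT (1) and the E160 and E308 deletion (1). Per the labels and methods, the authors preprocessed reads with fastp, aligned them with Bowtie2 2.4.4, removed duplicates with Picard (2.20.7 in the labels), and called peaks per library with MACS2 2.2.4 at a q-value of 0.05. SAMtools 1.9 is also listed in the labels. The deposited lists give a score, a fold enrichment (the ratio of pileup at the summit over local background), and the −log10 of p and q. No column of authors' comparisons was present. Depth in reads is unknown. Intervals cover counting error only.

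Positions of Cho replicate 1, WT and the deletion were NCBIM37 (mm9). In Cho replicate 2, 424 peaks were off NCBIM37 and gene starts matched GRCm38 positions, although mm9 is named for it, so it was only counted between the same flanking RefSeq genes. Genes and TSSs were those of GENCODE vM1. One peak per interval, the strongest, was kept. Overlaps of 1 bp or more were found in Python and checked against bedtools 2.31.1. Summit pileups were solved from fold enrichment and p, and tested on simulated data. Shares have 95% exact binomial (Clopper-Pearson) intervals, densities exact Poisson intervals (limits for a count of 0 are 3 counts) and medians order-statistic intervals. Promoter peaks had a summit within 1 kb of a TSS. Sequences came from NCBIM37. Scripts ran in Python 3.11.15 with pysam 0.24.0, scipy 1.17.1, pandas 2.3.3 and numpy 2.4.6.

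Deserts named were the 10 densest, the Sox9 desert and its neighbours, the 5 with most members, the 5 longest and those among the 5 lowest. Members named were all of the Sox9 desert, the 10 highest in WT, the highest of each of the 10 densest deserts and, at or above the median WT value, the 5 highest and 5 lowest ratios. Some of the 10 highest members are not reported here. Repeats and AP-1 splits were examined after values were seen. Members, lists and tests were chosen with earlier results of these data known. Alternatives covered q-values, overlap, equal peak numbers, distances, gap lengths, predicted genes, measures and windows.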

Additional observations from a re-analysis of the deposited data

How the results depend on the processing

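No paired analysis was possible because each genotype was read in a single library. Values not given here stayed within the counting interval of the reported value, or within 1.5 times of it for counts. The causes were not tested.

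The Sox9 desert ranked between 14 and 23 under all alternatives to the peak thresholds, overlap, TSS distance, predicted genes and denominator, and by all WT or all deletion peaks. It ranked 90 of 600 with gaps of at least 0.5 Mb, 63 by all Cho replicate 1 intervals (14.0 per Mb) and 3 by Cho replicate 2 with predicted genes left out. Its density was 54.6 per Mb by all deletion peaks and 14.0 at q below 1e-05. With gaps of at least 2 Mb it was no longer a desert.

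Gaps of at least 0.5 Mb gave 6507 members in 569 deserts and a median GC of 45.8%. Gaps of at least 2 Mb gave 696 in 62, a Cho replicate 1 share of 53.4%, a median log2 ratio of 0.44, 12.6% at least 2-fold higher, GC of 43.3%, AP-1 in 33.0% and a Cho replicate 1 share of 44.8% without AP-1. At q below 1e-05 the Cho replicate 1 share was 48.3%, and 38.4% without AP-1, the median log2 ratio 0.38 and the 2-fold share 6.29%. With equal numbers of strongest peaks these were 57.7%, 49.0%, 0.52 and 13.2%, with AP-1 in 30.7% and a share of 77.1% with AP-1. Summit pileup over library background gave a median log2 ratio of 0.036 and 3.79% at least 2-fold higher. GC was 46.5% within 50 bp and 42.7% within 250 bp of the summit. AP-1 within 50 bp was in 20.3% of members, with Cho replicate 1 shares of 76.1% with it and 44.7% without. Within 250 bp these were 38.4%, 68.3% and 40.3%. The AP-1 alternatives, the members without tandem repeats and the joint removal of predicted genes and deleted elements were chosen after seeing the data.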
